A study of Homo sapiens with 36 samples.

Results

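The fatty acid synthase gene FASN, the stearoyl-CoA desaturase genes SCD and SCD5 and the elongase genes ELOVL1 to ELOVL7 were followed through 36 RNA-seq libraries of the human ovarian cancer line A2780. These 10 genes were chosen by name, and all 10 were found among the 57820 genes of the count table. The choice of genes also named a large difference in ELOVL4 between cis and cis SSP cells, so that difference is described below and was not tested. The series held 12 conditions with 3 libraries each. The wt cells were parental A2780 cells, and the cis cells were their counterpart made resistant by long exposure to cisplatin. The cis SSP cells (SSP, serine synthesis pathway active) had grown out of cis cells kept without serine and glycine. Each of the 3 cell types was grown in complete medium (wt, cis, cis SSP) or without serine and glycine (-SG), and each of these with or without carboplatin (carbo). The labels give the carboplatin dose as 6 with an incomplete unit (the study's other assays used micromolar doses), and the methods give a general day for experiments without naming these libraries. For deprivation experiments, the study's methods describe a homemade medium with dialysed serum, made with or without these amino acids. Whether the complete-medium RNA-seq libraries also came from that homemade base was not stated. If they did not, serine and glycine cannot be told apart from the change of medium. Each cell type was 1 culture line. According to the study's legends, triplicates in the RNA-seq were technical, so the p-values below reflect only how much such libraries vary. In bulk RNA, fewer cells expressing a gene and less of its RNA per cell cannot be told apart.

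Fatty acid synthase builds palmitate from acetyl-CoA and malonyl-CoA. Stearoyl-CoA desaturases put the first double bond into palmitate and stearate, which gives the monounsaturated acids of membranes and stored fat. The ELOVL proteins sit in the endoplasmic reticulum and run the rate-limiting condensation that lengthens a fatty acyl-CoA by a pair of carbons, and each has its own preferred chains. ELOVL6 takes palmitate to stearate, ELOVL1, ELOVL3 and ELOVL7 work mainly on saturated and monounsaturated chains, ELOVL5 and ELOVL2 work on polyunsaturated chains, and ELOVL4 makes the very long chains known from retina, skin and brain. FASN, SCD and ELOVL6 are classic targets of the sterol regulatory element binding protein SREBF1.

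The libraries held 13074937 to 20441582 counts in genes (median 17663485.5). PHGDH, the serine synthesis enzyme used as a check of the labels, stood at 473 ± 16 CPM (counts scaled to a common library size, mean ± SD, n = 3) in wt, 153 ± 4.55 in cis and at 391, 268 and 279 CPM in the 3 cis SSP libraries, in the order of their replicate numbers. Of 8 ovarian or epithelial markers, PAX8, MUC16, KRT7 and CDH1 stayed near 0, and 4 reached 1 CPM in any library. These were KRT18 (up to 44.1 CPM), KRT8 (up to 6.45), EPCAM (up to 2.26) and WT1 (up to 1.42). The mesenchymal markers differed among themselves, with vimentin (VIM) at 1517 to 4599 CPM, CDH2 at 9.65 to 1403 CPM and FN1 at 0 to 2.87 CPM. No endothelial or leukocyte marker reached 1 CPM in any library, while fibroblast markers summed to between 2.09 and 1752 CPM and their part in the results was not tested. Library 25 (cis SSP, first of 3) and library 32 (cis SSP -SG, second of 3) stood apart from the other libraries of their conditions, with a common dispersion of 0.0328 to 0.0682 in fits that held either of them against 0.000421 to 0.00597 in the other fits, and the comparisons that include them are also given without them. Libraries 23 and 24 (cis -SG carbo) had the most reads outside genes, up to 17.9% of the library against 9.31% or less elsewhere.

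On GRCh37 the 10 protein-coding genes are FASN (ENSG00000169710.6, chr17:80036214-80056170, minus strand), SCD (ENSG00000099194.5, chr10:102106990-102124583, plus strand), SCD5 (ENSG00000145284.7, chr4:83550692-83719949, minus strand), ELOVL1 (ENSG00000066322.8, chr1:43829069-43833745, minus strand), ELOVL2 (ENSG00000197977.3, chr6:10980992-11044538, minus strand), ELOVL3 (ENSG00000119915.4, chr10:103986056-103989346, plus strand), ELOVL4 (ENSG00000118402.5, chr6:80624531-80657270, minus strand), ELOVL5 (ENSG00000012660.9, chr6:53132196-53213977, minus strand), ELOVL6 (ENSG00000170522.5, chr4:110967002-111120355, minus strand) and ELOVL7 (ENSG00000164181.9, chr5:60047618-60140101, minus strand). ELOVL2, ELOVL4 and ELOVL5 lie on chromosome 6, but far apart from each other. The exons of ELOVL6 overlap those of a gene on the opposite strand (ENSG00000288913) that the count table does not list, and whether the counting used strand was not stated, so reads of the pair cannot be separated. SCD has a processed pseudogene, SCDP1, with 231 counts over all libraries against 764616 for SCD.

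The 250 bases before the start site were available from RefSeq for 9 of the 10 genes (promoter table of GRCh38.p14), and each of these 9 windows had a single exact match in GRCh37, which gives the coordinates here. The windows of ELOVL4, ELOVL6, ELOVL7 and SCD5, described at length below, are shown, all on the minus strand and written 5′ to 3′ toward the start site, with capitals marking matches to an E-box (CACGTG) or a CCAAT box (CCAAT, or ATTGG on the other strand). They lie at chr6:80657271-80657520 for ELOVL4, chr4:111119772-111120021 for ELOVL6, chr5:60140097-60140346 for ELOVL7 and chr4:83719950-83720199 for SCD5. The start sites are those of RefSeq and can differ from the gene ends listed above. The ELOVL6 window lies inside the gene span listed above, and the windows of ELOVL1, ELOVL5 and ELOVL7 overlap their spans in part.
ELOVL4: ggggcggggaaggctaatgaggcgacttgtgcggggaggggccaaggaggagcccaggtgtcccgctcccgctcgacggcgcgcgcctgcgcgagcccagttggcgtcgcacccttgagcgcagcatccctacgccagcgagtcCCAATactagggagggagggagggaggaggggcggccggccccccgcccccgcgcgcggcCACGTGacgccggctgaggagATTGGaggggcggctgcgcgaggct
ELOVL6: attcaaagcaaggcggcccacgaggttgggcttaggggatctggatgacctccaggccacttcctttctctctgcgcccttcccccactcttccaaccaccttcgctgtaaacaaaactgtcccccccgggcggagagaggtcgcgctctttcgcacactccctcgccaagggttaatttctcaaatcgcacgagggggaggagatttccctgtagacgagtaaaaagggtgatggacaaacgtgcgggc
ELOVL7: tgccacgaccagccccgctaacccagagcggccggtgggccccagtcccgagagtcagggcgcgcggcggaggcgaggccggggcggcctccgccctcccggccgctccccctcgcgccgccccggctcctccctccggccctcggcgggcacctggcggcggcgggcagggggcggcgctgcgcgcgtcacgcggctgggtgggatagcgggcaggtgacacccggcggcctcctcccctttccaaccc
SCD5: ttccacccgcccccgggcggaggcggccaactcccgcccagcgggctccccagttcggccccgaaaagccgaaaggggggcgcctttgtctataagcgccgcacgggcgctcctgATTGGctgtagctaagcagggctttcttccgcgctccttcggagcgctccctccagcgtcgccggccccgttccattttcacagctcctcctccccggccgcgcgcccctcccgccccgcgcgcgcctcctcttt

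The ELOVL4 window held 1 E-box and 2 CCAAT boxes, and the SCD5 window held 1 CCAAT box. Neither motif was found in the windows of ELOVL6 and ELOVL7, and for ELOVL6 the bases before the outer end of the gene were not searched. Over the 9 windows, the E-box was found in 2 (ELOVL4 and ELOVL5), against 6.34% of the 35116 windows of the table. The CCAAT box was found in 6 (SCD, SCD5, ELOVL1, ELOVL3, ELOVL4 and ELOVL5), against 32% of all windows. A sterol regulatory element (TCACNCCAC, 0.883% of all windows) and an amino acid response element (TGATGNAA, 3.14%) were searched on both strands and matched none of the 9 windows, which says only that these letters are not in these bases. A motif match is a description of letters and not a binding site.

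Expression of the 10 genes spanned more than 3 orders of magnitude once divided by exon length. SCD was the most abundant, with a mean over the 36 libraries of 237 CPM per kilobase of exon, followed by FASN (87.3), ELOVL5 (69.6), ELOVL1 (30) and SCD5 (14.3). ELOVL6 (9.29), ELOVL4 (6.1) and ELOVL3 (4.66) were lower on that scale, and ELOVL7 (0.267) and ELOVL2 (0.0619) were close to the detection limit. Within a gene, the ratio of the highest to the lowest of the 12 condition means was 11.6 for ELOVL4, 9.72 for ELOVL7, 3.71 for ELOVL6 and between 1.79 and 2.51 for the other genes apart from ELOVL2, which had no counts in some conditions. When the 12 conditions were ordered by their means, ELOVL6 had 7 of its 11 neighbouring pairs without overlap between libraries, ELOVL4 had 5, SCD and SCD5 had 4 each, ELOVL1, ELOVL5 and ELOVL7 had 3 each, and FASN, ELOVL2 and ELOVL3 had 1 each. The same count was not made over all genes, so it cannot say whether any of these numbers is unusual. FASN was highest in wt carbo cells, and its lowest means were 526 CPM in cis SSP -SG and 527 CPM in cis -SG carbo cells, the first of which was 598 CPM without library 32. SCD was highest in wt carbo and lowest in cis SSP cells, and ELOVL6 ran from wt at the top to wt -SG carbo at the bottom. ELOVL1 and ELOVL3 were highest in untreated cis cells, SCD5 in cis SSP -SG cells, ELOVL5 in wt -SG cells and ELOVL7 in cis -SG cells.

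The order of ELOVL6 levels ran through the wt conditions at both ends. It stood at 124 ± 0.966 CPM (mean ± SD) in wt, 96 ± 3.48 CPM in wt -SG, 82.4 ± 1.03 CPM in cis and 72.3 ± 1.87 CPM in cis carbo cells, followed by the 4 cis SSP conditions between 61.3 and 68 CPM, among which cis SSP carbo and cis SSP -SG carbo did not overlap. Below them by mean lay cis -SG (55.7 ± 0.769 CPM), cis -SG carbo (47.5 ± 3.92 CPM), wt carbo (41.9 ± 1.08 CPM) and wt -SG carbo cells (33.3 ± 0.48 CPM), each separate from the next. Library 25 of cis SSP (54.7 CPM) and library 32 of cis SSP -SG cells (48.1 CPM), however, lay below every cis -SG library. SCD5 fell into a higher and a lower set of conditions. The 4 cis SSP conditions, cis and cis carbo cells held means of 73.5 to 92.2 CPM, and the 4 wt conditions, cis -SG and cis -SG carbo cells held 36.8 to 47.7 CPM. ELOVL5 was divided along another line, with 293 to 349 CPM in the 4 wt conditions, cis and cis carbo cells and 195 to 224 CPM in the 4 cis SSP conditions, cis -SG and cis -SG carbo cells. For ELOVL7, the means of cis -SG (3.52 ± 0.238 CPM) and cis -SG carbo cells (3.42 ± 0.122 CPM) overlapped each other and lay above the remaining 10 conditions, which ranged from 0.362 to 1.43 CPM.

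**Figure D1:**
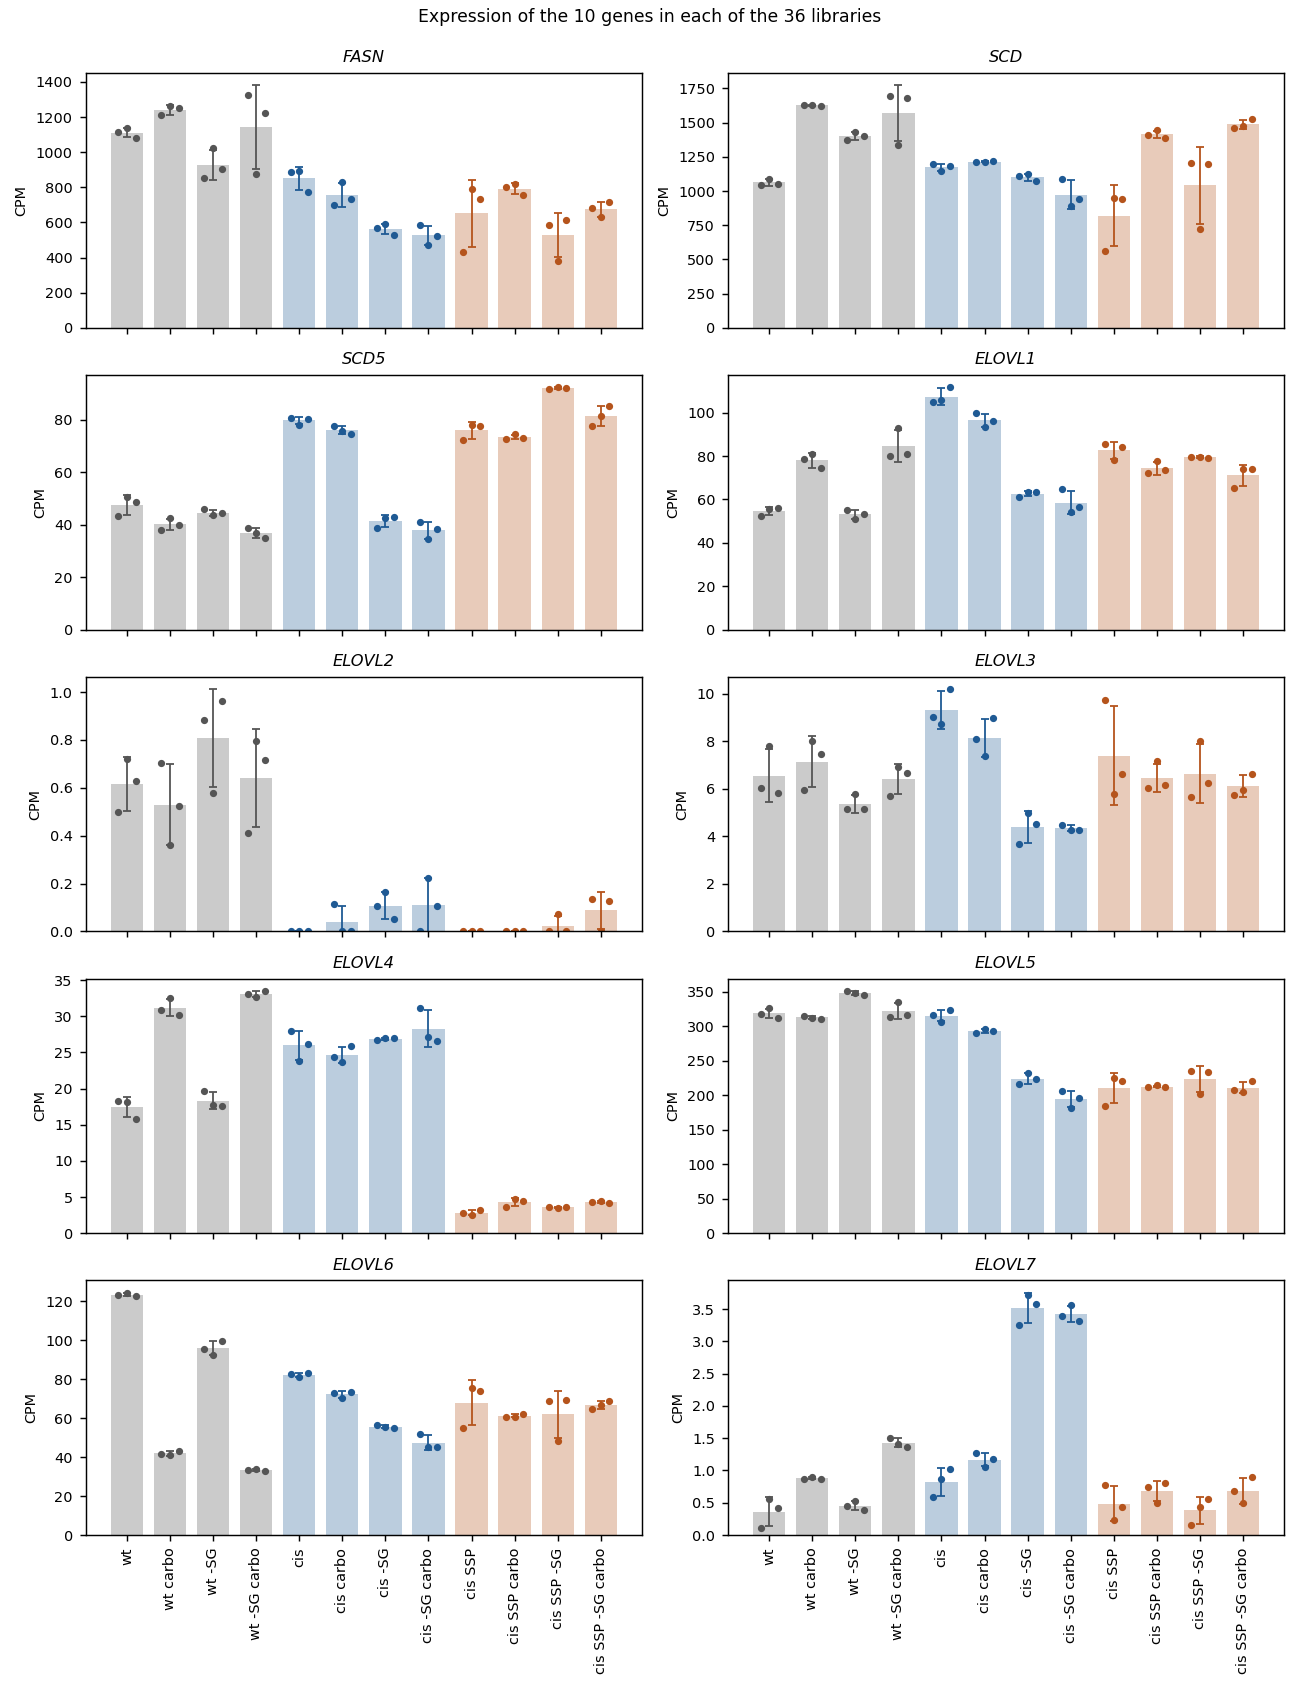
Expression in CPM (y axis, linear from 0) of the 10 genes in the 12 conditions (x axis; grey wt, blue cis, brown cis SSP). Points are libraries, bars are means and error bars are SD (n = 3); ELOVL4 stayed below 5 CPM in the 12 cis SSP libraries, ELOVL6 dropped in both carboplatin-treated wt conditions, and ELOVL7 was above 3 CPM in the 6 deprived cis libraries.

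Resistant and parental cells in complete medium differed in most of these genes. Differences are given as log2 fold changes with their standard errors (± SE). Of 9 genes with enough counts to be tested, 6 were higher and 2 lower in cis than in wt cells (edgeR, adjusted p under 0.05 after Benjamini-Hochberg correction over 14431 genes). Among all genes tested, 39.4% were higher and 39.1% lower, so a call is common in this comparison and the sizes matter more than the count. The median log2 fold change of the 9 genes was 0.48, against -0.0041 over all genes tested.

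ELOVL1, which makes very long saturated chains for sphingolipids, had 52.4, 55.5 and 55.9 CPM in the 3 wt libraries and 105, 106 and 112 CPM in the 3 cis libraries. All cis libraries lay above all wt libraries (log2 fold change 0.94 ± 0.04, adjusted p = 5.87e-26). SCD5, the second human stearoyl-CoA desaturase, rose from 43.4, 50.8 and 48.8 CPM to 80.8, 78.2 and 80.5 CPM (log2 fold change 0.71 ± 0.04, adjusted p = 1.77e-18). ELOVL4 had 18.2, 18.2 and 15.8 CPM in wt and 27.9, 23.8 and 26.2 CPM in cis cells, again without overlap (log2 fold change 0.54 ± 0.07, adjusted p = 3.16e-09). ELOVL3 (6.56 to 9.32 CPM, log2 fold change 0.48 ± 0.11) and SCD (1063 to 1175 CPM, 0.11 ± 0.02) rose by less. ELOVL7 rose from 0.362 to 0.825 CPM (log2 fold change 1.16 ± 0.39), a call that rested on under 20 counts per library, that was lost without wt replicate 1 among 6 fits leaving out a single library, and that the DESeq2 test did not make.

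FASN and ELOVL6, which act in palmitate synthesis and its first elongation, were lower in cis cells. ELOVL6 fell from 123, 125 and 123 CPM to 82.8, 81.3 and 83.2 CPM (log2 fold change -0.62 ± 0.03, adjusted p = 1.2e-21). FASN fell from 1116, 1135 and 1082 CPM to 885, 893 and 776 CPM (log2 fold change -0.42 ± 0.07, adjusted p = 0.00358). The groups did not overlap for either gene. ELOVL5, with 318 ± 6.76 CPM in parental and 315 ± 8.47 CPM in resistant cells, did not pass the test (log2 fold change -0.05 ± 0.02, adjusted p = 0.0778). ELOVL2, the elongase on the way to docosahexaenoic acid, had 0.498, 0.721 and 0.629 CPM in wt libraries and no count in the 3 cis libraries or the 3 cis SSP libraries. Against a floor of 3 counts per library, it was at least 3.49-fold higher in wt than in cis cells and at least 3.33-fold higher than in cis SSP cells.

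FADS2 and FADS1, which desaturate polyunsaturated chains, were lower in cis cells. FADS2, the delta-6 desaturase, fell from 602 ± 15.4 CPM to 23.6 ± 1.5 CPM (26.1-fold lower, log2 fold change -4.70, adjusted p = 1.17e-55). FADS1, the delta-5 desaturase, fell from 517 ± 4.13 to 322 ± 12.6 CPM (log2 fold change -0.72), while FADS3 rose from 21.3 ± 1.72 to 45.3 ± 2.54 CPM (1.05). Of 4 desaturases outside the 10 genes that were tested, 2 were higher and 2 lower. For this list and those that follow, 39.4% of all genes were higher and 39.1% lower. ME1, the malic enzyme that supplies NADPH for fatty acid synthesis, had 25.5 ± 0.703 CPM in wt and no count in cis cells, at least 144-fold lower against the same floor. In the list of acetyl-CoA and malonyl-CoA supply, 3 of 7 tested genes were higher and 3 lower. Of 11 tested partners of the elongation cycle and of desaturation, 5 were higher and 4 lower, with HACD3 (-0.55) and CYB5B (-0.57) the most reduced by log2 fold change.

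Some fatty acid uptake and oxidation genes were higher in cis cells and others were lower, beside 39.4% of all genes that were higher and 39.1% that were lower. CD36, a fatty acid receptor of the plasma membrane, had at most 2 counts in a wt library (0.0544 ± 0.0554 CPM) against 129 ± 2.61 CPM in cis cells, and SLC27A2, a fatty acid transporter and acyl-CoA synthetase, rose from 0.779 ± 0.0991 to 36.1 ± 0.668 CPM (log2 fold change 5.49, adjusted p = 5.33e-37). Among 16 tested uptake and activation genes, 6 were higher and 5 lower. The lower ones included ACSL3 (307 ± 5.04 to 165 ± 4.79 CPM) and ACSL4 (129 ± 5.69 to 90.9 ± 2.48 CPM). CPT1A, the gate of mitochondrial fatty acid import, rose 6.42-fold from 32.2 ± 1.48 to 212 ± 5 CPM. In its list, 12 of 21 tested oxidation genes were higher and 7 lower, among the latter CPT1C (log2 fold change -0.25) and ACADM (-0.25). PPARG, the nuclear receptor of fat cell differentiation, had no count in wt and 11.8 ± 0.634 CPM in cis cells, at least 72.5-fold higher against the floor, while the adipocyte markers ADIPOQ, PLIN1, FABP4 and LEP summed to at most 1.28 CPM in any library. Of 15 tested lipogenic regulators, 5 were higher and 10 lower. INSIG2, which holds the SREBP complex in the endoplasmic reticulum, fell from 56.8 ± 3.11 to 7.62 ± 0.681 CPM, and NR1H3, a liver X receptor, from 22.4 ± 0.773 to 4.76 ± 0.977 CPM.

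Removal of serine and glycine lowered most of these genes in cis cells. Of 9 tested, 7 fell and 1 rose, against 37.4% of all genes that fell and 37.6% that rose. In wt cells, 2 of 9 rose and 1 fell, against 24.1% and 25.1% of all genes. The median log2 fold change was -0.54 in cis and -0.03 in wt cells, and over all genes tested it was 0.01 in both comparisons.

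SCD5, ELOVL1 and ELOVL3 fell most by log2 fold change in deprived cis cells. SCD5 had 80.8, 78.2 and 80.5 CPM in complete medium and 38.8, 42.5 and 42.9 CPM after deprivation (log2 fold change -0.92 ± 0.04, adjusted p = 4.33e-23). ELOVL1 went from 105, 106 and 112 CPM to 61.3, 63.4 and 63.3 CPM (log2 fold change -0.75 ± 0.04, adjusted p = 4e-22). ELOVL3, an elongase known from hair follicle glands and brown fat, went from 9.04, 8.71 and 10.2 CPM to 3.68, 4.98 and 4.52 CPM (log2 fold change -1.06 ± 0.12, adjusted p = 6.55e-11). For these 3 genes every deprived cis library lay below every complete-medium cis library. FASN fell from 851 to 563 CPM (log2 fold change -0.57 ± 0.07), ELOVL6 from 82.4 to 55.7 CPM (-0.54 ± 0.04), ELOVL5 from 315 to 224 CPM (-0.47 ± 0.03) and SCD from 1175 to 1102 CPM (-0.07 ± 0.03).

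ELOVL7, which prefers saturated long chains, moved the other way. Its cis libraries had 0.594, 0.866 and 1.02 CPM in complete medium and 3.26, 3.72 and 3.57 CPM without serine and glycine (log2 fold change 2.09 ± 0.22, adjusted p = 9.29e-12). In the deprived cis cells it was thus 4.25-fold higher, with no overlap, although its level stayed among the lowest of the family. In wt cells ELOVL7 had 0.111, 0.555 and 0.42 CPM before and 0.442, 0.526 and 0.386 CPM after deprivation, too few counts to be tested there. ELOVL4 did not pass the test on deprivation in cis cells (26 ± 2.06 CPM and 26.9 ± 0.139 CPM, log2 fold change 0.08 ± 0.06, 95% interval -0.04 to 0.20) or in wt cells (0.09 ± 0.08, interval -0.06 to 0.24).

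In wt cells, deprivation raised SCD from 1044, 1089 and 1055 CPM to 1375, 1433 and 1402 CPM (log2 fold change 0.41 ± 0.02, adjusted p = 2e-12) and ELOVL5 from 318 to 349 CPM (log2 fold change 0.14 ± 0.02, adjusted p = 4.44e-05). ELOVL6 fell from 124 to 96 CPM (log2 fold change -0.35 ± 0.03, adjusted p = 3.01e-08). The test of the difference between both responses, cis minus wt, found 7 of 10 genes with a lower and 2 with a higher response in cis cells, against 26.9% and 27.1% of all genes. The difference was -0.82 ± 0.07 (log2 ± SE) for SCD5, -0.71 ± 0.06 for ELOVL1, -0.59 ± 0.04 for ELOVL5 and -0.46 ± 0.03 for SCD, with adjusted p-values between 5.44e-16 and 6.41e-13. For ELOVL4 it was 0.01 ± 0.10 with a 95% interval of -0.18 to 0.20. The higher calls were ELOVL7 (1.77 ± 0.53, adjusted p = 0.00458) and ELOVL2, whose value rests on 6 counts in cis -SG cells and none in cis cells.

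**Figure D2:**
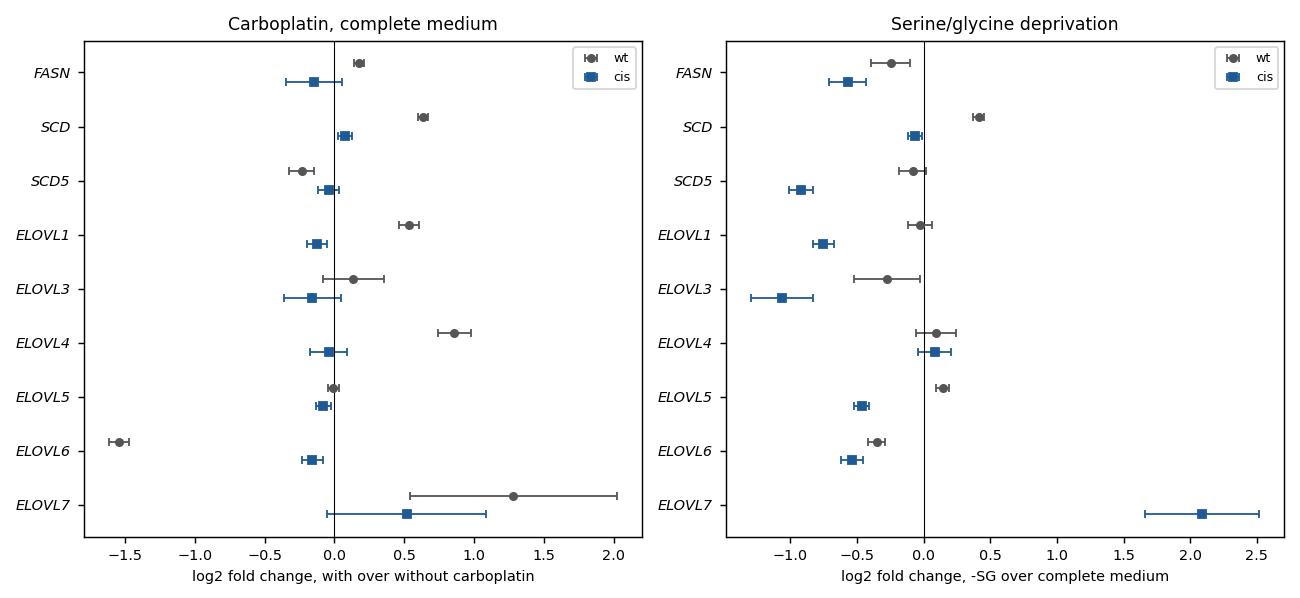
Log2 fold change (x axis) of 9 of the genes to carboplatin in complete medium (left) and to serine and glycine deprivation (right), in wt (grey circles) and cis cells (blue squares), with bars of the 95% interval; ELOVL2 is left out for its low counts, and ELOVL7 was not tested on deprivation in wt cells. ELOVL6 and ELOVL4 moved in opposite directions on carboplatin in wt cells, and SCD5, ELOVL1 and ELOVL3 fell on deprivation in cis cells.

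The regulators and suppliers of the pathway were lower in deprived cis cells in part. The list counts of cis cells stand against the 37.4% of all genes that fell and the 37.6% that rose. INSIG1, a sterol-responsive SREBP target that feeds back on the same pathway, fell 5.02-fold from 104 ± 1.71 to 20.4 ± 0.65 CPM (log2 fold change -2.33, adjusted p = 5.57e-38). ACLY, which makes cytosolic acetyl-CoA from citrate, fell from 355 ± 2.81 to 213 ± 7.18 CPM, and ACSS2, which makes it from acetate, from 63.5 ± 2.22 to 25.7 ± 0.948 CPM. In that supply list 4 of 6 tested genes fell and none rose at adjusted p under 0.05. Among the elongation and electron partners 7 of 9 fell and none rose, with CYB5B (-0.91) and TECR, the enoyl-CoA reductase that closes each elongation round (-0.63), falling most by log2 fold change. DBI, the acyl-CoA binding protein, fell 3.56-fold from 137 ± 3.83 to 37.8 ± 2.09 CPM, and 9 of 13 uptake and activation genes fell and 2 rose. Of 20 oxidation genes 11 fell and 5 rose, of 15 regulators 7 fell and 3 rose, and of 5 other desaturases 2 fell and 2 rose. In wt cells, INSIG1 fell from 139.7 ± 1.72 to 96.9 ± 3.18 CPM and FADS2 from 602 ± 15.4 to 474 ± 7.77 CPM, whereas 7 of 14 regulators rose and 3 fell. The shares of all genes in wt cells were 24.1% that rose and 25.1% that fell. In the other lists in wt cells, 1 gene rose and 3 fell of 7 for supply, 1 and 5 of 10 for elongation partners, 1 and 7 of 14 for uptake, 3 and 6 of 21 for oxidation and 1 and 2 of 4 for desaturases.

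Without serine and glycine, 7 of 10 genes were lower and 3 higher in cis than in wt cells, against 40.3% and 40.8% of all genes tested. FASN (928 CPM in wt -SG, 563 in cis -SG; log2 fold change -0.73 ± 0.08), ELOVL6 (96 and 55.7 CPM; -0.80 ± 0.04), ELOVL5 (349 and 224 CPM; -0.65 ± 0.03) and SCD (1404 and 1102 CPM; -0.36 ± 0.02) were the more abundant genes that were lower. SCD5 (-0.12 ± 0.05, adjusted p = 0.0265) and ELOVL3 (-0.31 ± 0.13, adjusted p = 0.0406), both higher in cis cells in complete medium, were lower in this medium, and without 1 library their calls were lost in 2 and 3 of 6 fits. ELOVL2 counted 44 reads over the wt -SG libraries and 6 over the cis -SG libraries, a ratio of 7.52 with an exact 95% interval of 3.19 to 21.6 that covers counting error only. ELOVL7 was 7.56-fold higher in cis cells (log2 fold change 2.92 ± 0.23, adjusted p = 3.25e-10), and ELOVL4 kept a log2 fold change of 0.54 ± 0.06, beside 0.54 ± 0.07 in complete medium. FADS2 stood at 474 ± 7.77 CPM in wt -SG and 12.5 ± 0.475 CPM in cis -SG cells. The lists gave 1 gene higher and 4 lower of 7 for supply, 3 and 6 of 10 for elongation partners, 4 and 11 of 15 for regulators, 6 and 8 of 15 for uptake, 9 and 8 of 21 for oxidation and 3 and 2 of 5 for desaturases.

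Carboplatin, which crosslinks DNA, changed 7 of the 10 genes in wt cells in complete medium, 5 upward and 2 downward, against 38.9% and 39% of 14639 genes tested. ELOVL6 had the largest fall. It went from 123, 125 and 123 CPM to 41.4, 41.2 and 43.1 CPM (2.91-fold lower; log2 fold change -1.54 ± 0.04, adjusted p = 3.23e-207). SCD5 fell from 47.7 to 40.1 CPM (log2 fold change -0.23 ± 0.05, adjusted p = 1.02e-06).

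ELOVL4 rose from 18.2, 18.2 and 15.8 CPM to 30.9, 32.5 and 30.2 CPM (log2 fold change 0.86 ± 0.06, adjusted p = 3.59e-39). The treated wt libraries lay above every untreated library of the series for this gene. SCD rose from 1044, 1089 and 1055 CPM to 1630.3, 1629.6 and 1622 CPM (log2 fold change 0.63 ± 0.02, adjusted p = 2.75e-167). ELOVL1 rose from 52.4, 55.5 and 55.9 CPM to 78.8, 81.1 and 74.4 CPM (log2 fold change 0.53 ± 0.04, adjusted p = 1.66e-39). FASN (0.18 ± 0.02) rose by less, and ELOVL7 (0.362 to 0.882 CPM, 1.28 ± 0.38) rose at a low level. SCD and ELOVL6, which share SREBP control in textbook accounts, thus moved in opposite directions in the same libraries.

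In cis cells the same treatment gave small changes. Of 9 tested genes 1 rose and 3 fell, against 9.27% and 10.8% of all genes. SCD rose by 0.08 ± 0.03 on the log2 scale, and ELOVL6 (-0.16 ± 0.04), ELOVL1 (-0.13 ± 0.04) and ELOVL5 (-0.08 ± 0.03) fell. DESeq2 called 1 of these genes, where it called 11.6% of all genes. An edgeR fit that pooled the spread of all 36 libraries called none, where 2.4% of all genes were called. The responses of both cell types differed in the test of the difference itself for 6 of 10 genes, 2 higher and 4 lower in cis than in wt cells, against 30.3% and 27.2% of all genes. The difference was 1.39 ± 0.05 for ELOVL6, -0.89 ± 0.09 for ELOVL4, -0.65 ± 0.05 for ELOVL1 and -0.55 ± 0.03 for SCD, with adjusted p-values from 1.3e-31 to 8.15e-13. ELOVL4 itself had 27.9, 23.8 and 26.2 CPM before and 24.3, 23.7 and 25.9 CPM after carboplatin in cis cells, with overlap.

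Part of the pattern in wt cells was found again without serine and glycine, where 3 of 10 genes rose and 2 fell (34.3% and 34.6% of all genes). ELOVL6 went from 95.8, 92.6 and 99.5 CPM to 33.6, 33.7 and 32.8 CPM (log2 fold change -1.49 ± 0.06, adjusted p = 2.44e-08). ELOVL4 went from 19.7, 17.7 and 17.5 CPM to 33.1, 32.6 and 33.5 CPM (log2 fold change 0.88 ± 0.07, adjusted p = 3.54e-06). ELOVL1 (0.70 ± 0.07) and ELOVL7 (1.66 ± 0.25, 0.451 to 1.43 CPM) rose and SCD5 (-0.25 ± 0.06) fell. SCD had 1696, 1334 and 1678 CPM in the treated libraries, where the second was lowest, and did not pass the test (0.19 ± 0.09, adjusted p = 0.0747). FASN had 1328, 873 and 1226 CPM there and did not pass either (0.33 ± 0.15, adjusted p = 0.0944). This second library (11) differed from libraries 10 and 12 by a mean chi-square per gene of 25.6 and 24.6, against 1.20 between those. Without library 11, 5 genes were higher and 3 lower, where 73.3% of all genes were called. In deprived cis cells, none of 9 genes rose and 2 fell (ELOVL5 -0.11 ± 0.03, ELOVL6 -0.14 ± 0.04; 10.9% and 11.6% of all genes rose and fell). Without libraries 23 and 24, which leaves 1 treated library assumed to vary like the untreated ones, both calls were lost and ELOVL4 was called higher (0.23 ± 0.08, adjusted p = 0.0454).

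In carboplatin-treated wt cells in complete medium, where 38.9% of all genes rose and 39% fell, 6 of 7 supply genes fell and 1 rose, 7 of 10 elongation and electron partners fell and 1 rose, and 11 of 14 regulators fell and 2 rose. FADS1 went from 517 ± 4.13 to 233 ± 3.67 CPM (log2 fold change -1.13) and FADS2 from 602 ± 15.4 to 275 ± 0.137 CPM (-1.11), while FADS3 rose from 21.3 ± 1.72 to 38.4 ± 0.919 CPM. INSIG1 fell 2.9-fold (139.7 ± 1.72 to 47.6 ± 0.872 CPM). ACACB, the acetyl-CoA carboxylase of the mitochondrial surface, fell 3.13-fold and TECR 1.79-fold. Of 21 oxidation genes 9 rose and 10 fell, with ACADVL, the very long chain acyl-CoA dehydrogenase (216 ± 10.3 to 435 ± 19.3 CPM), rising and HADH (48.8 ± 1.82 to 14.3 ± 1.5 CPM) falling. ACSL4, which activates arachidonic acid, rose from 129 ± 5.69 to 219 ± 2.84 CPM, and of 16 uptake and activation genes 5 rose and 6 fell. In cis cells, INSIG1 fell from 104 ± 1.71 to 85.5 ± 1.77 CPM and FADS1 from 322 ± 12.6 to 289 ± 4.76 CPM. There 0 to 4 genes of each list passed in either direction, against 9.27% of all genes that rose and 10.8% that fell. Without serine and glycine (34.3% of all genes rose and 34.6% fell), 8 of 15 uptake genes rose and 3 fell in carboplatin-treated wt cells, against 10 and 10 of 21 for oxidation, 3 and 4 of 10 for elongation partners, 1 and 4 of 7 for supply and 1 and 2 of 4 for desaturases. Of 14 regulators 1 rose and 11 fell, among the latter INSIG1 (96.9 ± 3.18 to 44.9 ± 3.52 CPM), and FADS1 fell from 495 ± 8.41 to 216 ± 12.1 CPM.

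ELOVL4 separated the cis SSP libraries from every other library of the series. It had 2.83, 2.57 and 3.15 CPM in cis SSP cells and 27.9, 23.8 and 26.2 CPM in the cis cells from which they grew, a ratio of the means of 9.11. With carboplatin it had 3.68, 4.71 and 4.49 CPM in cis SSP and 24.3, 23.7 and 25.9 CPM in cis cells, a ratio of 5.73. Without serine and glycine the ratio was 7.54 (3.62, 3.51 and 3.57 CPM against 26.7, 27 and 26.9 CPM), and with both it was 6.62 (4.25, 4.42 and 4.14 CPM against 31.2, 27.1 and 26.5 CPM). The highest cis SSP library thus stood at 4.71 CPM and the lowest cis library at 23.7 CPM. Library 25, with 2.83 CPM, and library 32, with 3.51 CPM, were close to the other libraries of their conditions for this gene. Parental wt cells, at 17.4 ± 1.39 CPM, lay between both. These differences chose the gene and are given without a test.

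The 3 genes whose 12 condition means were most like those of ELOVL4, out of 13119 ranked by Pearson correlation of log2(CPM + 0.5), were HIVEP1 (r = 0.991), FZD6 (r = 0.988) and SLITRK3 (r = 0.987). HIVEP1, a zinc finger transcription factor, had 40.5 CPM in wt, 69.3 in wt carbo, 52.9 in cis and 3.47 in cis SSP cells. FZD6, a Wnt receptor, had 8.69, 13.6, 13.3 and 0.312 CPM in the same order, and SLITRK3, a neuronal adhesion protein, 3.46, 4.24, 4.83 and 0.0181 CPM. The 12 means share the low level of the 4 cis SSP conditions, which weighs heavily in any such correlation.

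Of the 7 tested genes that start within 1 Mb of ELOVL4 on chromosome 6, 3 were lower and 1 was higher in cis SSP than in cis cells in complete medium, against 13.3% and 15.8% of the 13714 genes tested. SH3BGRL2, whose start lies 283485 bases from that of ELOVL4, went from 5.78 to 0.558 CPM (log2 fold change -3.31 ± 0.24, adjusted p = 0.000296). LCA5, a ciliary gene, went from 6.55 to 0.834 CPM (-2.91 ± 0.25, adjusted p = 0.000569). On the other side of ELOVL4, the mitotic kinase gene TTK fell by less (-0.48) and BCKDHB, of branched-chain amino acid breakdown, rose (1.17). HMGN3 (0.84), HMGN3-AS1 (0.45) and PHIP (-0.51) did not pass. SH3BGRL2 and LCA5 are the nearest tested genes on one side of ELOVL4, and TTK and BCKDHB are the nearest on the other. DNA copy number was not measured here. Without library 25, the log2 fold changes of SH3BGRL2, LCA5, TTK and BCKDHB were -3.23, -2.75, -0.42 and 1.24, and HMGN3 (0.44) and PHIP (-0.18) were called as well, where 65.4% of all genes were called.

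**Figure D3:**
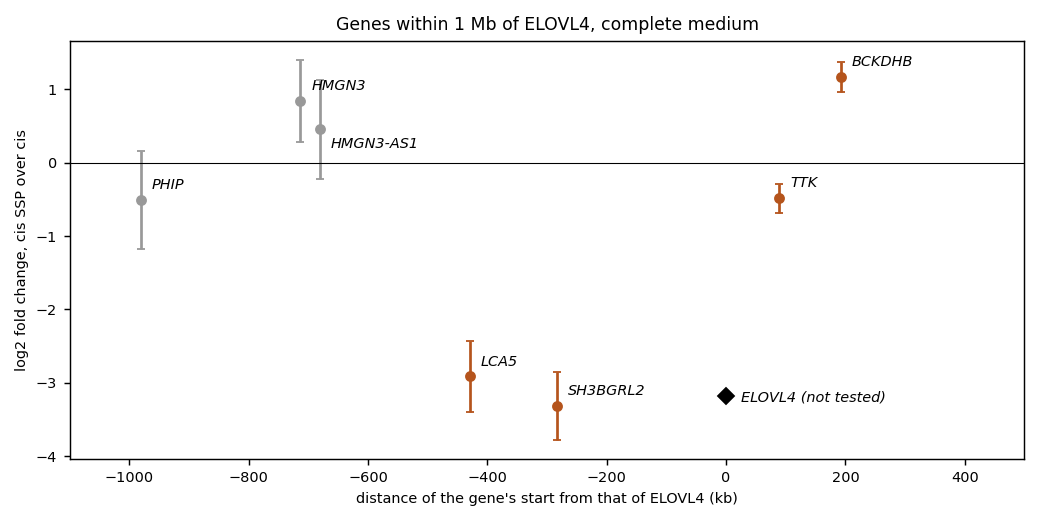
Log2 fold change between cis SSP and cis cells in complete medium (y axis, bars of the 95% interval) of the tested genes by the distance of their start from that of ELOVL4 (x axis, kb along chromosome 6). Brown points passed the test, grey points did not, and the black diamond is the ratio of the ELOVL4 means, shown as a description; SH3BGRL2 and LCA5 sit near -3.

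Among the other 8 genes tested between cis SSP and cis cells in complete medium, 2 were lower and none higher. Of all genes tested, 13.3% were lower and 15.8% higher. ELOVL5, the first polyunsaturated elongase, had 316, 307 and 324 CPM in cis and 185, 225 and 220.4 CPM in cis SSP cells (log2 fold change -0.56 ± 0.12, adjusted p = 0.0152). ELOVL1 had 105, 106 and 112 CPM and 85.6, 78.3 and 84.4 CPM (log2 fold change -0.35 ± 0.09, adjusted p = 0.0292). Neither gene's libraries overlapped between the cell types, yet only 3 and 1 of the 6 fits without a single library kept the call.

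Library 25 departed from the other cis SSP libraries in several genes. Relative to the mean of the other cis SSP libraries, it held 0.57 times as much FASN, 0.595 times as much SCD and 0.733 times as much ELOVL6, which have the longest exon sequence of the 10 genes (9321, 5245 and 7274 bases). For ELOVL5 and ELOVL1 the ratio was 0.829 and 1.05. It held 1.57 times as much ELOVL3, which has the shortest (1400 bases), and 2.31 times as much ELOVL7 (4461 bases), which was below 1 CPM there. Library 32 stood in a like relation to the other cis SSP -SG libraries, with ratios of 0.64, 0.598, 0.697 and 1.35 for FASN, SCD, ELOVL6 and ELOVL3. The part of exon length in these ratios was not tested. FASN had 885, 893 and 776 CPM in cis and 433, 788 and 733 CPM in cis SSP cells, with overlap, and did not pass the test (log2 fold change -0.36 ± 0.24, adjusted p = 0.302). SCD had 1195, 1146 and 1185 CPM and 563, 951 and 945 CPM and did not pass either (-0.49 ± 0.22, adjusted p = 0.141), although its groups did not overlap. Without library 25, 6 of 8 genes were lower in cis SSP than in cis cells and none was higher, and 65.4% of all genes were then called in either direction. ELOVL5 stood at -0.46 ± 0.03, ELOVL1 at -0.36 ± 0.04 and SCD at -0.27 ± 0.03 in that fit, ELOVL3 at -0.54 ± 0.12, ELOVL6 at -0.10 ± 0.04 and ELOVL7 at -1.23 ± 0.44.

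**Figure D4:**
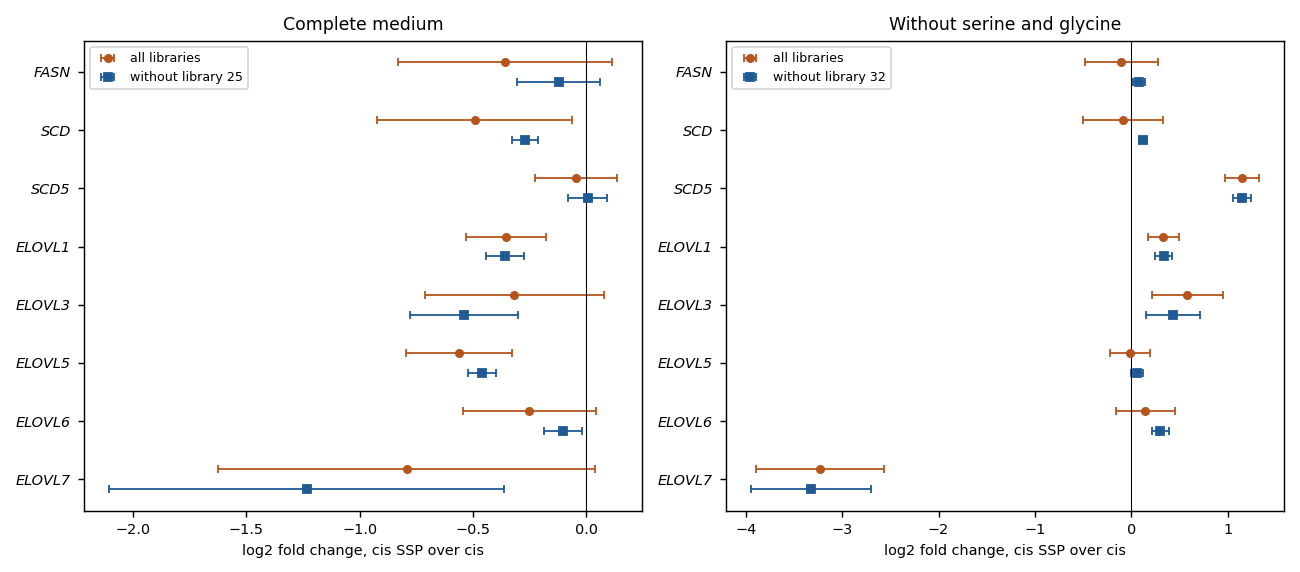
Log2 fold change between cis SSP and cis cells (x axis, bars of the 95% interval) of 8 genes in complete medium (left) and without serine and glycine (right), with all libraries (brown circles) and without library 25 or library 32 (blue squares). The bars of FASN, SCD and ELOVL6 shortened without these libraries, and SCD5 and ELOVL7 stood apart from 0 in opposite directions on the right in both fits.

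Without serine and glycine, 3 of 8 genes were higher and 1 lower in cis SSP than in cis cells, against 21.6% and 23.2% of all genes. SCD5 had 38.8, 42.5 and 42.9 CPM in cis -SG and 92, 92.5 and 92.2 CPM in cis SSP -SG cells (log2 fold change 1.15 ± 0.09, adjusted p = 0.000257). ELOVL7 had 3.26, 3.72 and 3.57 CPM and 0.153, 0.43 and 0.557 CPM (9.37-fold lower; log2 fold change -3.23 ± 0.34, adjusted p = 0.000814). The cis SSP -SG libraries lay above all cis -SG libraries for SCD5 and below all of them for ELOVL7. ELOVL1 (0.33 ± 0.08, adjusted p = 0.0183) and ELOVL3 (0.58 ± 0.19, adjusted p = 0.0458) were higher, calls that 2 of the 6 fits without a single library kept for each gene. Without library 32, 6 genes were higher and 1 lower, FASN, SCD and ELOVL6 being the added ones at 0.08, 0.12 and 0.30, where 75.5% of all genes were called in either direction.

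The cis SSP cells had arisen without serine and glycine, and the medium they were kept in before these libraries was not stated. Their comparison of both media may thus differ in kind from the deprivation of cis cells. Within cis SSP cells, the medium without serine and glycine gave no call by edgeR among 8 tested genes, and DESeq2 gave none either (0.711% of all genes). SCD5 alone had an unadjusted p under 0.05. Of all 13736 genes tested, 3 (0.0218%) rose and 0 (0%) fell. Without libraries 25 and 32, where 35.9% of all genes were called, 4 of the genes passed, with SCD (0.34 ± 0.02) and SCD5 (0.23 ± 0.04) higher and FASN (-0.35 ± 0.03) and ELOVL6 (-0.12 ± 0.05) lower. The deprivation response of cis SSP cells differed from that of cis cells for 4 of 9 genes in the test of the difference, 3 higher and 1 lower (6.86% and 10.3% of all genes). The difference was 1.20 ± 0.10 for SCD5 (adjusted p = 5.67e-05), 0.69 ± 0.10 for ELOVL1 (adjusted p = 0.00128), 0.56 ± 0.13 for ELOVL5 and -2.43 ± 0.61 for ELOVL7. Each of these 4 stayed called when libraries 25 and 32 were left out together, and ELOVL3, SCD and ELOVL6 were then called higher as well, where 55.4% of all genes were called.

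Carboplatin in cis SSP cells gave no call among 9 genes in complete medium (1.97% of all genes rose and 0.749% fell), with 2 genes at an unadjusted p under 0.05 and 1 called by DESeq2 (4.35% of all genes). Those 2 were SCD, with 563, 951 and 945 CPM before and 1409.5, 1445 and 1389 CPM after treatment (log2 fold change 0.78 ± 0.21, adjusted p = 0.14), and ELOVL4, with 2.83, 2.57 and 3.15 CPM and 3.68, 4.71 and 4.49 CPM (log2 fold change 0.58 ± 0.16, adjusted p = 0.137). In both genes every treated library lay above every untreated one. Without library 25, SCD (0.57 ± 0.02) and ELOVL4 (0.57 ± 0.18) were called higher and ELOVL1, ELOVL5 and ELOVL6 lower, where 41.2% of all genes were called. In deprived cis SSP cells, edgeR called none of 8 genes (1.17% of all genes rose and 0.295% fell). DESeq2 called none (3.9% of all genes), and 1 gene, SCD (0.52 ± 0.20), had an unadjusted p under 0.05 by edgeR. Without library 32, FASN and SCD were called higher and SCD5, ELOVL1 and ELOVL5 lower, where 41.1% of all genes were called.

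Of the partner genes, FADS2 rose in cis SSP over cis cells, from 23.6 ± 1.5 to 40.3 ± 2.82 CPM in complete medium (log2 fold change 0.80, adjusted p = 0.00285) and from 12.5 ± 0.475 to 44.4 ± 1.26 CPM without serine and glycine (1.82, adjusted p = 6.83e-05). It remained far below its wt level in both media. HACD1, a dehydratase of the elongation cycle, rose from 7.53 ± 0.292 to 22.2 ± 6.77 CPM and SREBF1 from 137 ± 7.44 to 198 ± 5.16 CPM. PPARG fell from 11.8 ± 0.634 to 3.54 ± 0.37 CPM, ACSS2 from 63.5 ± 2.22 to 29.4 ± 0.805 CPM and ACADM, the medium chain acyl-CoA dehydrogenase, from 73.7 ± 1.49 to 25 ± 1.05 CPM. These 6 genes kept their direction and call without library 25. Against 15.8% of all genes called higher and 13.3% called lower, called genes in complete medium were 1 higher and 2 lower of 6 supply genes, 2 and 2 of 10 elongation partners, 2 and 5 of 15 regulators, 1 and 3 of 13 uptake genes, 5 and 2 of 20 oxidation genes and 1 and 0 of 4 desaturases. Without library 25, where 65.4% of all genes were called in either direction, these counts were 2 and 4, 2 and 3, 5 and 6, 2 and 7, 12 and 5, and 1 and 3. Without serine and glycine, DBI stood at 37.8 ± 2.09 CPM in cis and 105 ± 31.6 CPM in cis SSP cells and INSIG1 at 20.4 ± 0.65 and 39.6 ± 4.93 CPM, both called higher, with and without library 32.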

How the data were processed

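Each of 36 libraries was made from a lysed culture of one of the 12 conditions, with mRNA purified on beads, a SENSE Total RNA kit and single-end HiSeq2500 reads. The authors aligned reads to GRCh37.p13 with STAR and counted them on GENCODE exons with HTSeq, and the deposited values are these raw counts per gene, with no normalization (the strand setting is not given in the sources used here). Groups were taken from the labels. Reads outside genes (4.21% to 17.9%) and other rows naming no gene were left out of library sizes. Replicate pairs differed beyond sampling noise (mean chi-square per gene of 1.20 to 123), so none was merged. Counts were scaled by TMM and reported as CPM. Each comparison was fitted on its own libraries with filterByExpr and robust glmQLFit of edgeR 4.0.16 (R 4.3.3), tested with glmQLFTest and adjusted by Benjamini-Hochberg over all genes tested, with calls at adjusted p under 0.05. The fits were tested on simulated counts. DESeq2 1.42.0 was an alternative, as were DESeq2 size factors, total counts, no filter, one fit of all libraries and leaving out single libraries. Leaving out libraries 11, 25, 32 or 23 and 24 by name was chosen after seeing the data.

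The members and lists were chosen with earlier results of these data known. The rule for named genes was the 10 members, up to 2 called genes per direction with the largest change from each of 6 pathway lists at a mean of at least 5 CPM, the 3 genes most like ELOVL4 over the 12 condition means (mean of at least 1 CPM), the tested genes within 1 Mb of its start, and PHGDH. Overlap between groups is given in words for the genes it concerns. Of 120 listed genes 118 were matched by symbol, and ACACA and PECAM1 were not used here. Upstream sequences came from RefSeq, were cut and searched with Python 3.11.15, and replaced protein sequences, which were not used here. The deposited table holds raw counts only.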

Additional observations from a re-analysis of the deposited data

Results flagged for a closer look

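The responses of the fatty acid genes differed between cell types in the edgeR interaction test for 19 gene and comparison pairs, each with all 3 libraries per condition, and these values are repeated here without an explanation. Such calls were common, with 57.6%, 54% and 17.1% of all genes called in these comparisons, in the order given below. For carboplatin in complete medium, the response of cis cells minus that of wt cells was -0.32 for FASN, -0.55 for SCD, 0.20 for SCD5, -0.65 for ELOVL1, -0.89 for ELOVL4 and 1.39 for ELOVL6 on the log2 scale. The values of FASN and SCD5 lost their call in 5 and 2 of the 12 fits without a single library.

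For deprivation of serine and glycine, the response of cis cells minus that of wt cells was -0.31 for FASN, -0.46 for SCD, -0.82 for SCD5, -0.71 for ELOVL1, -0.77 for ELOVL3, -0.59 for ELOVL5 and -0.17 for ELOVL6. It was 1.77 for ELOVL7 and 3.67 for ELOVL2, whose fitted value depends on the prior count, since cis cells had no ELOVL2 count. The FASN value lost its call in 9 of 12 fits without a single library, that of ELOVL2 in 6 and that of ELOVL7 in 1.

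For the same deprivation, the response of cis SSP cells minus that of cis cells was 1.20 for SCD5, 0.69 for ELOVL1, 0.56 for ELOVL5 and -2.43 for ELOVL7. These 4 were also called without libraries 25 and 32, at 1.15, 0.70, 0.53 and -2.08, where 55.4% of all genes were called.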

How the results depend on the processing

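No paired analysis was possible because libraries carry running numbers (1 to 36) in their titles, with none shared by a pair of conditions. Of 72 called member values, 72 stayed past the threshold with DESeq2 size factors, 62 with the DESeq2 test, 63 without a filter, 63 with total counts and 56 in one fit over 36 libraries, and none changed direction. The counts of called genes moved by over 1.5 times in these cases. For cis SSP against cis cells, 1 gene was called without a filter, where 13.9% of all genes were called. One fit over the 36 libraries called 4 (47.8% of all genes). Without serine and glycine, 2 were called without a filter (22.3% of all genes). For carboplatin in cis cells, DESeq2 called 1 (11.6% of all genes) and the one fit 0 (2.4%). In deprived cis cells DESeq2 called 1 (12.4%), total counts 1 (21.7%) and the one fit 0 (6.84%). For carboplatin in cis SSP cells DESeq2 called 1 (4.35% of all genes) and the one fit 3 (18.5%). In deprived cis SSP cells the one fit called 3 (17.1%). For deprivation of cis SSP cells the one fit called 1 (9.17% of all genes) and the fit without libraries 25 and 32 called 4 (35.9%). The difference of their response from that of cis cells counted 7 without these libraries (55.4%). The share of all genes called in either direction moved as well when single libraries were left out, and is given in brackets. Leaving out single libraries gave 0 to 6 called genes for cis SSP against cis cells (14.3% to 65.4%). Without serine and glycine it gave 2 to 7 (27.4% to 75.5%). For carboplatin the range was 1 to 3 in cis (12.8% to 18.7%) and 0 to 3 in deprived cis cells (11.3% to 34.7%). It was 0 to 5 in cis SSP (0.0636% to 41.2%) and 0 to 5 in deprived cis SSP cells (0% to 41.1%). In wt cells it was 7 to 8 (74.2% to 75.2%) and in deprived wt cells 5 to 8 (63% to 73.3%). For deprivation it was 3 to 5 in wt (41.9% to 48.3%), 7 to 8 in cis (71.8% to 72.8%) and 0 to 0 in cis SSP cells (0%). For cis against wt cells it was 8 to 10 in either medium. The shares there were 75.3% to 76.9% in complete medium and 77.7% to 79.4% without serine and glycine. The 3 differences of responses gave 5 to 7 (carboplatin, cis minus wt), 6 to 9 (deprivation, cis minus wt) and 4 to 5 (deprivation, cis SSP minus cis). In the same order, 54.1% to 55.6%, 50.1% to 52% and 12.1% to 23% of all genes were called. The log2 ratio of ELOVL4 between cis SSP and cis cells ranged from -3.27 to -3.12 in complete medium, -2.59 to -2.42 with carboplatin, -2.93 to -2.90 without serine and glycine and -2.77 to -2.65 with both, and with total counts the last 2 were -2.996 and -2.92. For carboplatin in deprived cis cells, the mean log2 TMM factor of the treated libraries was 0.12 above that of the untreated ones. Total counts leave out this factor. The cause of these moves was not tested. Depth limited ELOVL2 and ELOVL7, which had under 1 CPM in many libraries.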
